A study of Mus musculus with 2 samples.

Results

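The genes examined were those of 5 families that move, deacetylate or recruit enzymes to chromatin: the SMARC genes, the chromodomain helicases (CHD), the AT-rich interaction domain genes (ARID), the zinc-dependent histone deacetylases (HDAC) and the sirtuins. They were chosen by symbol, as every gene named by the platform annotation as Smarc followed by any ending, Chd1 to Chd9, Arid1 to Arid5, a numbered Hdac, or Sirt1 to Sirt7. This gave 49 genes of 19057 on the array, carried by 109 of its 45281 probes, with 14 SMARC, 8 CHD, 10 ARID, 10 HDAC and 7 sirtuin genes. Hdac1 and Chd7 had no probe with that single symbol and were not analysed here. Expression was measured on Illumina bead arrays in 2 samples of mouse Flt3-low LSK cells, a sorted fraction without lineage markers and with Sca1 and c-Kit, in which hematopoietic stem and early progenitor cells are found. The labels call the first a control and the second CA/CA, which was taken to mean the mice of the series title, with a transgene for constitutively active IKK2 in their hematopoietic stem cells. IKK2, encoded by Ikbkb, is the kinase that frees NF-kB from its inhibitors. The labels and protocols do not name the promoter of the transgene, the alleles of the control, or the age and number of mice per sample. With 1 array in each group there is no replicate error and no test, and each comparison is between 2 samples rather than 2 genotypes.

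Chromatin remodellers are ATP-driven machines that slide, eject or exchange nucleosomes, and so set which enhancers and promoters a cell can use. The BAF and PBAF complexes are built around the ATPases Smarca4 or Smarca2, the ISWI complexes around Smarca5 or Smarca1, and the NuRD complex joins Chd3 or Chd4 to histone deacetylases. Deacetylases remove acetyl groups from histones and other proteins, the HDAC enzymes with zinc and the sirtuins with NAD+. In blood stem and progenitor cells these complexes are needed for self-renewal and for the choice of lineage.

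Signals are the authors' normalized intensities in array units, on a linear scale from which background had not been subtracted. A probe counted as measured when its signal reached a floor of 92.0 units on at least 1 array, the background mode of 81.7 units plus 4 SD. The signal of a gene is the mean over its measured probes. Its difference is the mean of its probes' differences, each CA/CA minus control on the scale of log2(signal + 16), which understates the change of dim genes. Dim and bright probes thus weigh equally in the difference of a gene, while bright probes dominate its signal, so that signals and difference can diverge where probes disagree. Probes of 1 gene differed from each other in this difference with an SD of 0.24, which measures probe error only. Ikbkb had a signal of 205 in both samples, from 1 measured probe, and the labels do not say whether that probe reads the transgene. Of the sort markers, Kit had control and CA/CA signals of 970 and 677 and a difference of -0.18, with its 2 measured probes at -0.58 and 0.21. Cd34 was at 287 and 153, Flt3 was below the floor on both arrays, and Ly6a, which encodes Sca1, was not analysed here. Markers of other cells differed between the samples. The summed signal of 10 erythroid markers was 3441 units for the control and 13258 for CA/CA, with 9 of 10 above 0. The sums were 10225 and 1071 for 7 B progenitor markers, all of them lower in CA/CA, and 60386 and 33064 for 10 granulocyte and monocyte markers, 2 of them above 0. For 7 T and NK cell markers the sums were 4818 and 1812, most of it Nkg7 at 4190 and 1055, while 5 of the 7 were above 0 and the median difference was 0.29. Pax5 and Cd8a stayed below the floor in both samples. The part of this cell mixture in the differences given here was not tested, and in such bulk samples fewer cells of a type and less RNA per cell cannot be told apart.

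Most of the measured genes of these families were lower in CA/CA than in the control, by small amounts on the scale used here. Of the 49 genes, 43 were measured, 42 of them above the floor on both arrays. By the mean of the probe differences none of the 43 reached 2-fold in either direction, where 1.34% of all 10118 measured genes did so upwards and 1.67% downwards. By the difference of the gene signals themselves, a measure added after seeing the data, 3 of the 43 were at least 2-fold lower, Arid1b at -1.06, Hdac5 at -1.04 and Smarca2 at -1.01, where 1.91% of all genes were, and 0 were at least 2-fold higher. Below 0 were 32 of the 43 genes and above 0 were 11, while 49.1% of all measured genes were below 0. The median difference was -0.14, against 0.01 over all measured genes, whose central 95% ran from -0.85 to 0.73.

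Measured against probe error, 28 of the 43 genes differed by no more than the SD between probes of a gene. A further 14 genes were lower by more than that SD, where 18.9% of all measured genes were, and 1, Smarca5-ps, was higher by more, where 17.5% were. Of the 14, Smarca2, Arid1b and Chd3 had own probes with SDs of 0.75, 0.75 and 0.31, larger than their differences. Hdac5, Smarce1 and Chd9 exceeded the SD of their own probes, and the rest had 1 measured probe each. At a 1.5-fold threshold 4 genes were lower, Hdac5, Sirt3, Smarca2 and Arid1b, and 1 was higher, again Smarca5-ps. All measured genes were at least 1.5-fold lower in 5.71% of cases and at least 1.5-fold higher in 4.07%. After normexp background subtraction Hdac5 was the 1 gene of the 43 past 2-fold, at -1.15, where 2.47% of all genes were at least 2-fold lower. With the brightest probe in place of the probe mean, Hdac5, Smarca2 and Arid1b were past 2-fold lower, where 2.4% of all genes were.

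**Figure D1:**
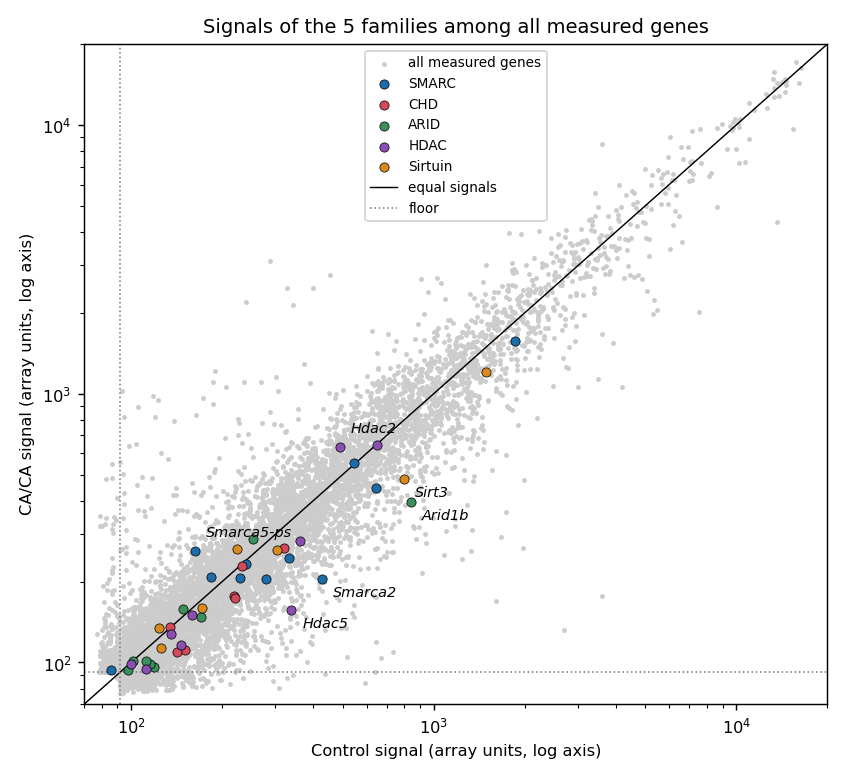
Control signal (horizontal) against CA/CA signal (vertical), both in array units on log axes, for all measured genes (grey) and for the measured genes of the 5 families (coloured); the diagonal marks equal signals and the dotted lines the floor of 92.0 units. By these signals 33 of the 43 genes lie below the diagonal, with Hdac5, Smarca2 and Arid1b at least 2-fold below it, Sirt3 nearer to it and Smarca5-ps above it.

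Single probes gave the same picture, with the 2-fold differences in the bright probes of 3 genes. Of the 109 probes, 68 were measured, 49 of these were lower and 19 higher in CA/CA, so that 72.1% were below 0, against 47.2% of all measured probes. At least 2-fold lower were 4 of the 68 probes, or 5.88%, against 1.84% of all measured probes, and 0 were at least 2-fold higher. These 4 were 2 probes of Hdac5 and 1 each of Smarca2 and Arid1b. Of 15 genes with 2 or more measured probes, 6 had every such probe lower in CA/CA, 0 had every one higher and 9 had probes in both directions. Over the whole array 28.8% of such genes had all measured probes lower and 37.1% all higher. The 6 genes were Hdac5, Smarca2, Smarce1, Arid1b, Chd3 and Chd9. For Smarca2 and Chd3, 1 of the probes was above the floor in the control only, which fixed its direction as lower. Among the 9, the same held for 1 probe each of Hdac2 and Arid4a. Chd2, Chd4 and Hdac8 each had 1 probe above the floor in CA/CA only, which fixed its direction as higher.

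**Figure D2:**
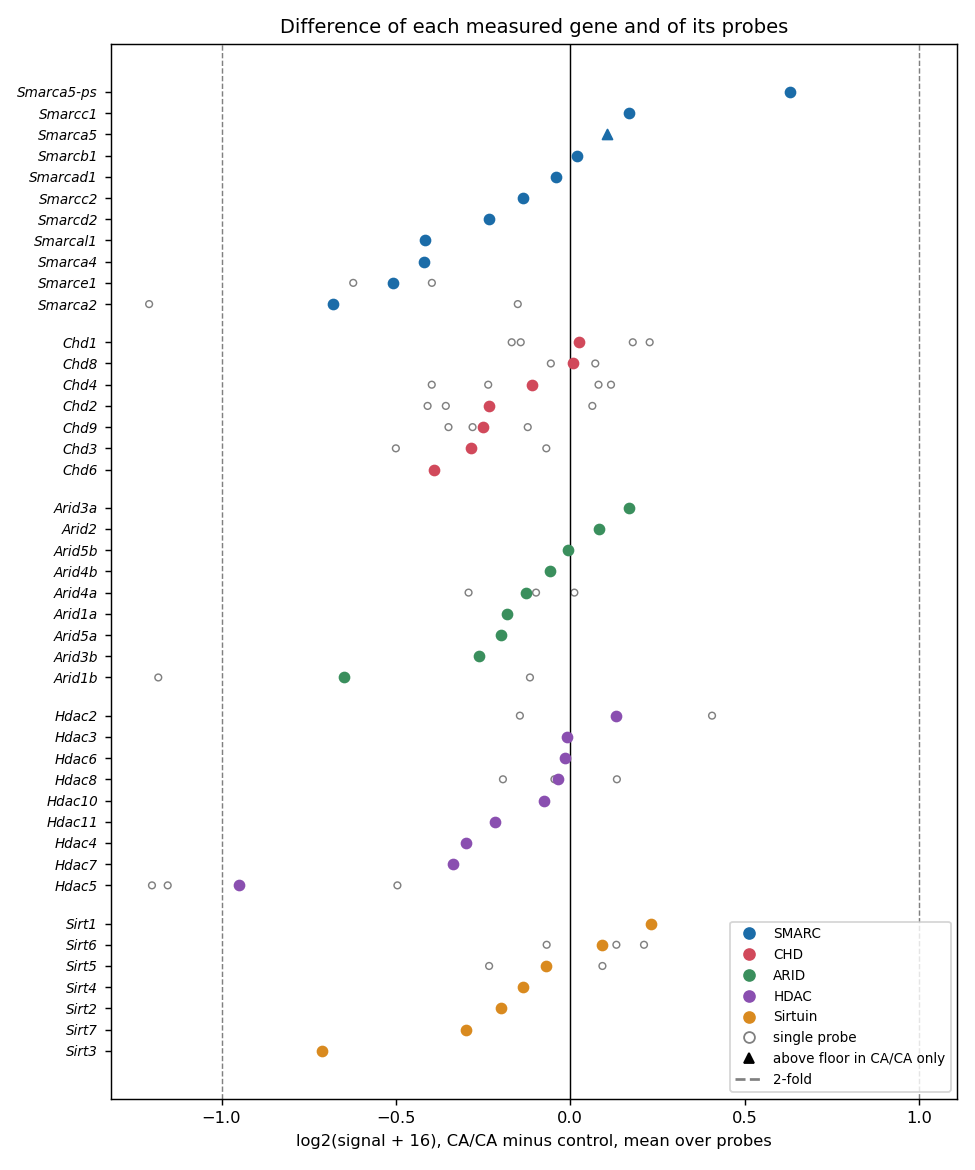
Difference in log2(signal + 16), CA/CA minus control, of the 43 measured genes by family (filled symbols, the mean over its probes; the triangle is Smarca5, above the floor in CA/CA only) and of the single measured probes of genes with more than 1 (open circles); dashed lines mark 2-fold. Every filled symbol lies within 2-fold, and 4 open circles, of Hdac5, Smarca2 and Arid1b, lie beyond it on the lower side.

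Among the SMARC genes, both BAF ATPases had lower signals in CA/CA. Smarca2, which encodes the ATPase BRM, gave 428 units in control cells and 204 in CA/CA cells, a difference of -0.68. This value rests on probes that disagreed: ILMN_3154810 was at 754 and 317, a difference of -1.21, while ILMN_3075712 was near the floor, at 103 and 91.0, and the other 3 of its 5 probes never reached the floor. With all 5 probes averaged the difference was -0.28. Smarca4, which encodes the alternative ATPase BRG1, was at 333 and 245, a difference of -0.42 from 1 probe. The other subunits of these complexes differed in both directions. Smarce1, the HMG-domain subunit, was at 644 and 446, a difference of -0.51, with its 2 probes at -0.40 and -0.62. Smarcd2, a subunit known to be needed for granulocyte development, was at 1851 and 1572, a difference of -0.23, and its alternatives Smarcd1 and Smarcd3 were below the floor on both arrays. Of the core subunits, Smarcb1 was at 545 and 553, Smarcc1 at 183 and 208 and Smarcc2 at 229 and 207, none of them beyond the SD between probes. The measured BAF subunits of this family thus ranged from -0.68 to 0.17.

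The SMARC genes outside BAF differed in both directions. Smarcal1, an annealing helicase at stalled replication forks, was at 278 and 204, a difference of -0.42. Smarcad1, a remodeller that helps restore silent chromatin after replication, was at 240 and 232. Smarca5, the ISWI ATPase SNF2H, did not reach the floor in control cells and had a CA/CA signal of 93.5, at least 1.02-fold higher, and its alternative Smarca1 was below the floor on both arrays. The annotated pseudogene Smarca5-ps was at 162 and 260, a difference of 0.63 and the highest of all 43 genes. Its other probe was below the floor on both arrays, and whether the measured probe also reads Smarca5 RNA was not checked. The SMARC median over 11 measured genes was -0.14, with 7 below 0, and without the pseudogene it was -0.19.

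**Figure D3:**
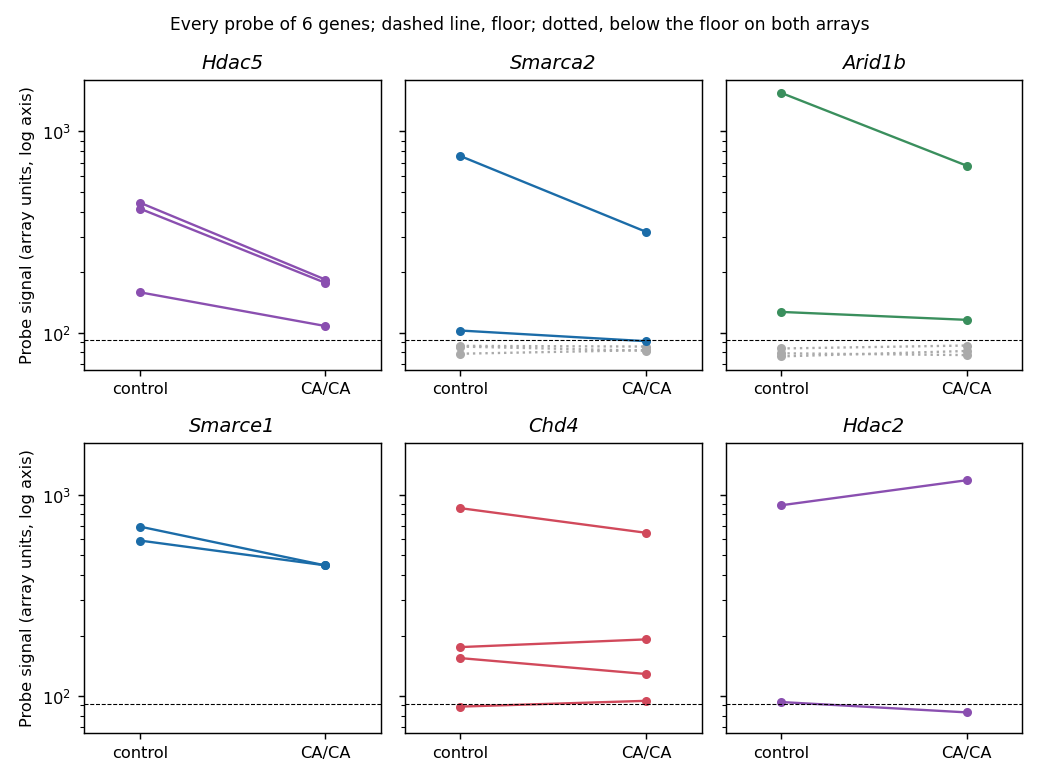
Signal of every probe (array units, log axis) in the control and the CA/CA sample for 6 genes; each line joins 1 probe, the dashed line is the floor and dotted grey lines are probes below it on both arrays. All 3 Hdac5 probes and both Smarce1 probes were lower in CA/CA, Smarca2 and Arid1b each rest on 1 bright and 1 dim probe, and the probes of Chd4 and Hdac2 differed in direction.

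In the ARID family the lowest value was that of Arid1b, a DNA-binding subunit of BAF. It had a control signal of 840 and a CA/CA signal of 396, a difference of -0.65. Its probe ILMN_1240420 was at 1553 and 676, a difference of -1.18, its probe ILMN_1231417 at 127 and 116, a difference of -0.12, and 3 further probes were below the floor. With all 5 probes averaged the difference was -0.24. Arid1a, the alternative to Arid1b, was at 170 and 148, a difference of -0.18, and Arid2, the PBAF subunit, was at 148 and 158, a difference of 0.08. Neither of these exceeded the SD between probes. Arid3a, a transcription factor of B cell and stem cell development, was at 254 and 287. Its difference of 0.17 came from 1 probe and was within the SD between probes. Its relative Arid3b was dim, at 119 and 96.5, a difference of -0.26. The remaining ARID genes were close to the floor. Arid4a and Arid4b, which bring the SIN3 deacetylase complex to DNA, differed by -0.13 and -0.06, Arid5a, an RNA-binding protein that stabilises cytokine mRNAs, by -0.20 and Arid5b by -0.01, and Arid3c was below the floor on both arrays. The family median over 9 measured genes was -0.13, with 7 below 0.

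The CHD family had the lowest median of the 5 families, -0.23 over 7 measured genes, with 5 below 0 and none past 1.5-fold. With no floor its median was -0.108 and that of the sirtuins, at -0.111, was lower. Chd3 and Chd4, the alternative ATPases of NuRD, differed by -0.28 and -0.11, from 142 to 109 units and from 319 to 266 units. For Chd3 both measured probes were lower, at -0.50 and -0.07. The second of these, at 93.8 and 88.7, was above the floor in the control only, so its direction was fixed by the floor. For Chd4 the brightest probe was at 858 and 648, a difference of -0.40, while the 4 probes ranged from -0.40 to 0.12 and lay on both sides of 0. Chd6 was at 151 and 111, the lowest difference of the family at -0.39, from 1 of its 3 probes. With all 3 probes averaged the difference of Chd6 was -0.107. Chd3 was the lowest of the family with no floor, at -0.28, and with the brightest probe, at -0.50. Chd9 was at 219 and 177, with 3 measured probes from -0.35 to -0.12, and Chd2, a remodeller of active chromatin, was at 221 and 174, with 2 probes lower and 1, near the floor, at 0.06. Chd1, which binds a histone mark of active promoters, was at 134 and 136 and had 2 probes above and 2 below 0. Chd8, a regulator of beta-catenin target genes, was at 233 and 228, with its bright probe at -0.06, its dim probe at 0.07 and a mean difference of 0.01, and Chd5 was below the floor on both arrays with all 5 probes.

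Of the histone deacetylases, Hdac5 had the largest difference of all 43 genes. It gave 339 units in control cells and 156 in CA/CA cells, a difference of -0.95, and 8 of the 9 measured HDAC genes were below 0. The 3 Hdac5 probes were at 443 and 184, at 414 and 177 and at 159 and 108, differences of -1.20, -1.15 and -0.50, so each was lower in CA/CA. Hdac5 belongs to class IIa, the enzymes that shuttle between nucleus and cytoplasm and restrain MEF2 transcription factors. The class was read as a group after the values had been seen. Of its other members, Hdac7, known for its role in lymphocyte development, was at 363 and 284, a difference of -0.34 from 1 probe. Hdac4 was at 147 and 116, a difference of -0.30 from 1 of its 2 probes. With both Hdac4 probes averaged the difference was -0.14. Hdac9 was below the floor on both arrays with all 4 probes. All 3 measured class IIa genes were thus lower by more than the SD between probes, where 18.9% of all measured genes were. With no floor Hdac4 was within that SD.

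Of the class I enzymes, the main nuclear deacetylases, Hdac3 and Hdac8 were close to equal in the samples. Hdac3, the enzyme of the NCoR and SMRT corepressors, was at 649 and 645, a difference of -0.01. Hdac8, which also deacetylates cohesin, was at 136 and 128, with 3 probes from -0.19 to 0.13. The probe at 0.13 was above the floor in CA/CA only, which fixed its direction. With a floor of 6 SD the difference of Hdac8 was -0.12, within the SD between probes. Hdac2 was the 1 HDAC gene above 0, at 490 and 632, a mean probe difference of 0.13. Its bright probe ILMN_2640441 was at 887 and 1181, a difference of 0.41, and its dim probe was at 93.6 and 83.2, the latter under the floor, a difference of -0.14. The remaining deacetylases were dim or little different. The class IIb genes Hdac6, a tubulin deacetylase, and Hdac10, a polyamine deacetylase, were at -0.02 and -0.07, and Hdac11, the class IV enzyme, was at 112 and 94.3, a difference of -0.22. The family median was -0.07, and it was -0.19 with the brightest probe of each gene.

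All 7 sirtuins were measured, and Sirt3 differed most. Sirt3, the main deacetylase of mitochondrial proteins, had a control signal of 800.3 and a CA/CA signal of 482, a difference of -0.71 from 1 probe. The other mitochondrial sirtuins had smaller values, with Sirt4 at 126 and 113, a difference of -0.14, and Sirt5, which removes succinyl groups, at 171 and 159, its 2 probes at -0.23 and 0.09. Among the remaining sirtuins, Sirt1, a nuclear deacetylase whose targets include NF-kB subunits, was at 223 and 265, a difference of 0.23 and the highest of the family. Sirt6, a chromatin-bound deacetylase that acts in DNA repair, was at 124 and 134, with 2 of 3 probes above 0. Sirt7, the nucleolar sirtuin, was at 1483 and 1202, a difference of -0.30 from 1 of its 2 probes. With both Sirt7 probes averaged the difference was -0.11, within the SD between probes. Sirt2, a largely cytoplasmic enzyme, was at 304 and 263, a difference of -0.20. The median of the 7 genes was -0.14, with 5 below 0. Sirt3 and Sirt7 were the sirtuins lower by more than the SD between probes, and no sirtuin was higher by more than it.

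The genes whose proteins work with these families were not lower as a group. Of 69 measured partner genes, 30 were below 0 and 39 above 0, with a median of 0.02, and 0 were past 2-fold in either direction. Among 15 BAF and PBAF partners the median was -0.04. Phf10, a PBAF subunit of dividing progenitors, was the highest at 554 and 933, a difference of 0.84, and Bcl7a the lowest at 608 and 392, a difference of -0.61. The NuRD partners lay on both sides of 0. Their median was 0.20 over 7 measured genes, with 5 above and 2 below 0. Mbd3 was at 0.35, the histone chaperone Rbbp7 at 0.33, Mta2 at 0.24 and Mta3 lowest at -0.36.

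The median was 0.02 for 13 measured subunits of the INO80, SRCAP and TIP60 remodellers. The ATPases Ruvbl1 and Ruvbl2, which also assemble other complexes, differed by 0.48 and 0.76, from 1243 to 1692 units and from 1030.5 to 1758 units. Ino80c was at 0.33 and Yeats4 lowest at -0.31. Among 8 measured ISWI partners the median was 0.02, with Pole3, a histone-fold protein shared with a DNA polymerase, at 0.56. The HDAC corepressors had a median of -0.04 over 17 genes and ranged from -0.48 for Mier2 to 0.28 for the demethylase Kdm1a. The histone acetyltransferases, which oppose the deacetylases, were at a median of 0.08, with 9 genes measured, Hat1, which acetylates newly made histones, at 3300 and 4458, a difference of 0.43, Kat2a at 0.36, Kat6b at -0.26 and Ep300 at -0.23.

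**Figure D4:**
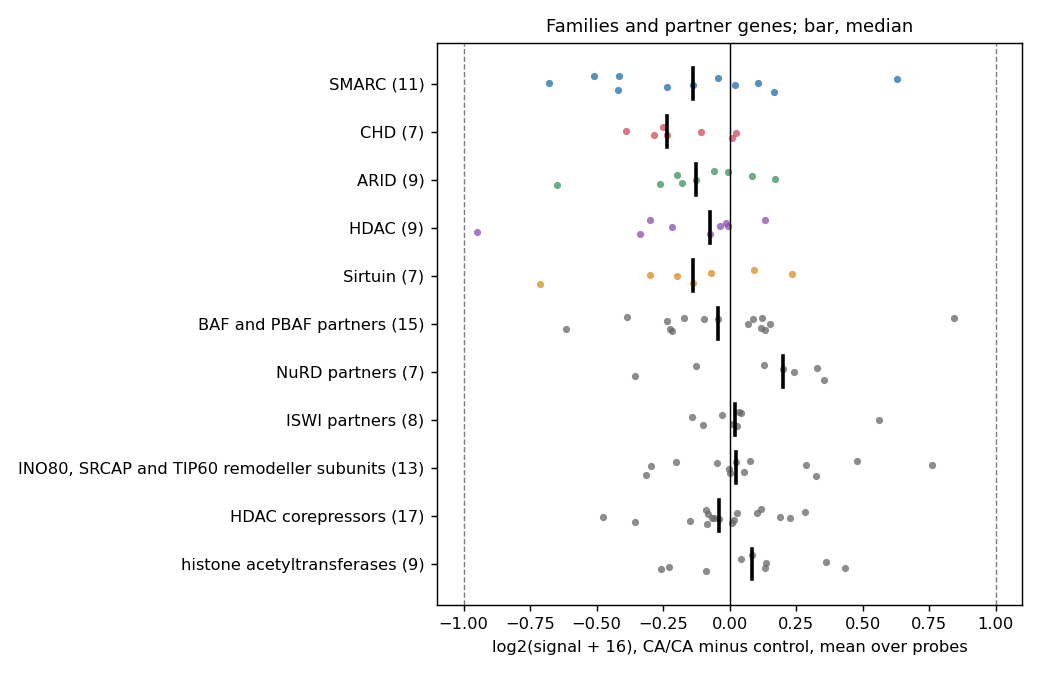
Difference in log2(signal + 16), CA/CA minus control, of each measured gene (points, spread vertically at random) in the 5 families (coloured) and 6 lists of partner genes (grey), with the list median as a bar, the number of measured genes in brackets and 2-fold as dashed lines. The family medians lie between -0.23 and -0.07 and the partner medians between -0.04 and 0.20.

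The promoters of these genes are mostly rich in CpG, a feature that the choice by symbol did not use. RefSeq windows from 250 bases before to 50 bases after the gene start, build GRCm38.p6, were matched for 39 of the 49 genes, giving 51 windows. Their median GC content was 62% with 22 CpG per window, against 52.7% and 7 over all 32851 windows. The GC box GGGCGG, a site of Sp1-type factors, was found on either strand in 36 of the 51 windows, or 70.6%, and in 35.7% of all windows. A loose form of the NF-kB site, GGGA followed after any 4 bases by CC, was found on either strand in 18 of the 51, or 35.3%, and in 20.7% of all windows. Both motifs are rich in G and C, as are the windows of these genes, and their matches can overlap. Shown here are 2 genes that were lower in CA/CA, Hdac5 and Smarca2, and 2 with values above 0, Hdac2 and Sirt1, chosen after their values had been seen. Each window is on the strand of its gene, with matches to either motif in capitals.
Hdac5, chr11:102230123-102230422, minus strand: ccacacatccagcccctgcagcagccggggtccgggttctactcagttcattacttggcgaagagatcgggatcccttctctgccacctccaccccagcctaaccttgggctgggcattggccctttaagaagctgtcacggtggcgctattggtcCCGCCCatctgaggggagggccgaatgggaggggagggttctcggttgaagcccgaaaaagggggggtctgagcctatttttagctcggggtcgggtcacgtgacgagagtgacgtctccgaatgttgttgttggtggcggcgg
Smarca2, chr19:26604910-26605209, plus strand: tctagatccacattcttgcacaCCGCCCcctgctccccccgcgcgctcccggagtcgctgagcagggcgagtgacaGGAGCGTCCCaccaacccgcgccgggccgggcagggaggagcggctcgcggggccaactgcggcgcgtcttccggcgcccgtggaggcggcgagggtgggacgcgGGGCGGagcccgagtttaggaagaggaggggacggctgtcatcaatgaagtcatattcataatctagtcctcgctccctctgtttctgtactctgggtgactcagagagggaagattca
Hdac2, chr10:36974294-36974593, plus strand: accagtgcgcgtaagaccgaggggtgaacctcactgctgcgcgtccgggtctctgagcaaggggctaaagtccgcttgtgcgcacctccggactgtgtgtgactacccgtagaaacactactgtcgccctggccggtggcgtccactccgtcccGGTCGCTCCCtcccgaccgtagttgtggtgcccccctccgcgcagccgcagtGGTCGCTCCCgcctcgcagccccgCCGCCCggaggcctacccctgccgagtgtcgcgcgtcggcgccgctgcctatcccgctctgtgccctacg
Sirt1, chr10:63338986-63339285, minus strand: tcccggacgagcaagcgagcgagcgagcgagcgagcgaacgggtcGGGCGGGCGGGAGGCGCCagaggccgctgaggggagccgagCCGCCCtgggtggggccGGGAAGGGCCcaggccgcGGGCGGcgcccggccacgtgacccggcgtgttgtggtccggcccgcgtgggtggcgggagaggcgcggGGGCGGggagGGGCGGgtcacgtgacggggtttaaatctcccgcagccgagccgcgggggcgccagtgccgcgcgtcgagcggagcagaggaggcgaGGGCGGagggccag

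The windows of Hdac5 and Smarca2 held 18 and 29 CpG, and those of Hdac2 and Sirt1 held 36 and 47. The loose NF-kB form had 0 matches in the Hdac5 window, 1 in that of Smarca2 and 2 in each of the Hdac2 and Sirt1 windows. GC boxes numbered 1 for Hdac5, 2 for Smarca2, 1 for Hdac2 and 7 for Sirt1, where 1 of them overlapped a match to the other motif. Windows of other genes did not keep to this order. For the loose NF-kB form, the windows of Sirt3, lower in CA/CA, held 0 and 2 matches. Those of Smarcb1 and Smarcc1, with values above 0, held 0 and 1. Whether such counts follow the differences over all members was not tested. The counts describe the letters of single windows and show no binding.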

How the data were processed

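RNA of 1 control and 1 CA/CA sample was amplified, biotin-labelled and hybridised to Illumina bead arrays, per the labels' protocols; the submitters' processing notes name BeadStudio. The authors deposited 1 intensity value per probe and sample. These values were linear, had medians of 86.1 on both arrays and nearly identical sorted columns, as after quantile normalization; the submitters do not state the method. A second table, with 4 value columns under headings that fit neither sample's labels, was not used, so the floor replaced its detection p-values. Of the probes, 34885 had 1 gene symbol, 18 several and 10378 none. The background mode is the midpoint of the narrowest range that contains 25% of the values, and its SD is that of the lower values about the mode. A gene that reached the floor on just 1 array was given an at-least fold against the lowest signal above the floor, or its own dim signal if higher. Every gene of the families could be named. For each partner list, some of the members with the largest differences were named. The members and lists were chosen with earlier results of these data known. Python 3.11.15, numpy 2.4.6, pandas 2.3.3, limma 3.58.1 in R 4.3.3 (normexp, offset 50) and matplotlib 3.10.9 were used. The gene step was tested on simulated data with large changes set in all probes of bright genes. That setting does not cover the dim genes, disagreeing probes and small differences of these families. Alternatives were no offset, an offset of 50, normexp, a floor of 3 or 6 SD, no floor, the brightest probe, a 1.5-fold threshold and, added after seeing the data, the difference of gene signals and leaving out Smarca5-ps.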

Additional observations from a re-analysis of the deposited data

How the results depend on the processing

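With 1 array per group no sample could be left out, and the number of arrays limits the precision. No paired analysis was possible because each group had 1 sample. The medians of all 5 families and of all members together were below 0 under every alternative run. The median of all members was -0.19 after normexp subtraction, -0.19 with the brightest probe and -0.074 with no floor, where dim probes are averaged in. With no floor the SMARC median was -0.029 and the CHD median -0.11, and with the brightest probe the CHD median was -0.39 and the HDAC median -0.19. The count of genes at least 2-fold lower, 0 as reported, was 1 with no offset and 1 after normexp subtraction, Hdac5 in both, and 3 with the brightest probe. It was also 3 when the difference was taken between the gene signals in place of averaging the probe differences, an alternative chosen after seeing the data, with Hdac5, Smarca2 and Arid1b in both cases. At 1.5-fold it was 4 lower and 1 higher. Leaving out Smarca5-ps, chosen after seeing the data, left both 2-fold counts at 0. It moved the SMARC median from -0.14 to -0.19 and left that of all members at -0.14. The 1 gene at least 1.5-fold higher was Smarca5-ps itself. Of 343 recomputed gene values, 331 moved by less than the SD between probes of 1 gene. The other 12 moved by more, 5 of them with the brightest probe and 4 with no floor. Those 4 were Arid1b, Chd6, Smarca2 and Smarca5-ps. Hdac2 moved from 0.13 to 0.41 both with the brightest probe and with a floor of 6 SD. The sign changed under some alternative for 5 genes, Arid4a, Arid5b, Chd1, Chd8 and Smarcad1, all with reported differences of 0.13 or less in size. Genes read by 1 measured probe, such as Sirt3 and Smarca4, have no check from a second probe.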
